A study of Homo sapiens with 5 samples.

Results

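NRF2 targets and antioxidant enzymes were followed as a set of 10 genes, NQO1, HMOX1, GCLM, GCLC, TXNRD1, SRXN1, MGST1, GLRX, PRDX1 and SOD2. This set and the wider lists below were chosen by function but with earlier results of these data known. Their shares of called genes are thus not those of a blind choice. The 10 genes were matched on the symbols in the deposited gene table. They correspond to 11 of the 64837 gene entries, since SOD2 is listed under 2 identifiers, and 9 genes passed the filter on low counts. NCI-H209 is an established small-cell lung cancer (SCLC) cell line, grown in RPMI-1640 with 10% fetal bovine serum. The control group held 3 libraries of untreated NCI-H209 cells. The co-cultured group held 2 libraries of NCI-H209 cells that shared medium with human brain microvascular endothelial cells (HBMECs) across a Transwell membrane for 24 h. HBMECs were grown in RPMI-1640 with 10% fetal bovine serum and 10% Nu-serum. The paper does not state the medium used during co-culture or whether the control wells held an empty insert. RNA was taken from the tumor cells, and the cells of both groups came from 1 line with no genetic change introduced. The labels number the libraries as replicates without saying that they came from separate cultures, so the p-values measure the spread between these libraries only. Gene positions are given on GRCh38, from GENCODE release 29.

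NRF2, encoded by NFE2L2, is a transcription factor that is held at low protein levels by KEAP1, which presents it to a CUL3 ubiquitin ligase. Oxidants and electrophiles modify KEAP1, NRF2 then accumulates, pairs with a small MAF protein and binds antioxidant response elements near genes of glutathione synthesis, thioredoxin reduction and detoxification, and BACH1 occupies the same elements as a repressor. In lung cancer the pathway is known above all from tumors in which KEAP1 or NFE2L2 is mutated.

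The depth on genes was 15457071 to 19157348 counts per library, and a count of 3 corresponded to 0.154 to 0.198 CPM (counts per 1000000, with library sizes scaled by TMM). The share of unmapped reads was 8.13% to 8.48% in control, while in the co-cultured group it was 15.9% and 16.8%. Control replicate 1 stood apart from the other control libraries on the second principal component. Of the neuroendocrine markers, INSM1 had 579 ± 72.0 CPM (SD, n = 3) in control, while CHGA had at most 1 count in any library. Among 20 endothelial markers, 7 had at most 3 counts in every library. Their summed level was 12.0 to 29.1 CPM in control and 27.7 to 33.1 CPM in co-cultured libraries, and 2 of the 10 tested, ESAM and ANGPT2, were higher at an adjusted p under 0.05. CDH5 had 11, 8 and 4 counts in control against 7 and 11 in co-cultured libraries, PECAM1 had 14, 10 and 3 against 18 and 11, and VWF had 159, 75 and 87 against 87 and 90. ESAM had 3, 4 and 6 counts in control against 21 and 14 in co-cultured libraries. ANGPT2 had 7.44, 2.21 and 1.64 CPM in control against 13.9 and 19.0 CPM in co-cultured libraries. In both co-cultured libraries it gave more of the summed level than any other of these markers. Reads on the opposite strand of ANGPT2 were 68.0% of all its reads in control and 29.9% in co-cultured libraries. Other markers went the opposite way without passing the test, among them FLT1 with 30, 28 and 0 counts against 1 and 1, KDR with 37, 27 and 2 against 12 and 4, and TEK with 31, 24 and 0 against 6 and 3. Reads of these 3 markers were thus most frequent in control replicates 1 and 2. The part of HBMEC RNA and of the unmapped share in the results was not tested.

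Among the 9 tested genes, 5 rose in the co-cultured cells at an adjusted p under 0.05 and 0 fell. They were GLRX, MGST1, NQO1, GCLM and GCLC, with a log2 fold change (log2FC, co-cultured over control) between 0.48 and 1.96. Over all 20360 genes tested, 18.4% were called higher and 15.0% lower by the same quasi-likelihood test of edgeR, with adjustment after Benjamini and Hochberg. These were 3750 and 3059 genes, and under upper-quartile normalization 3076 genes were higher and 3929 lower. No antioxidant gene was lower at an unadjusted p under 0.05 either, and DESeq2 called 0 of them lower. The median log2FC of the 9 genes was 0.48, beside -0.03 over all genes tested. Both co-cultured libraries lay above all control libraries for the 5 called genes and for PRDX1, a pattern that 29.4% of all genes showed. In bulk RNA a change in the number of cells that express a gene and a change in RNA per cell cannot be told apart. Without control replicate 1, which had the highest CPM of the control libraries for all tested members except HMOX1, 7 genes were called, where 26.5% of all genes were higher. Without co-cultured replicate 1 the count was 1, with 8.21% of all genes higher, and without co-cultured replicate 2 it was 3, with 8.94%.

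**Figure D1:**
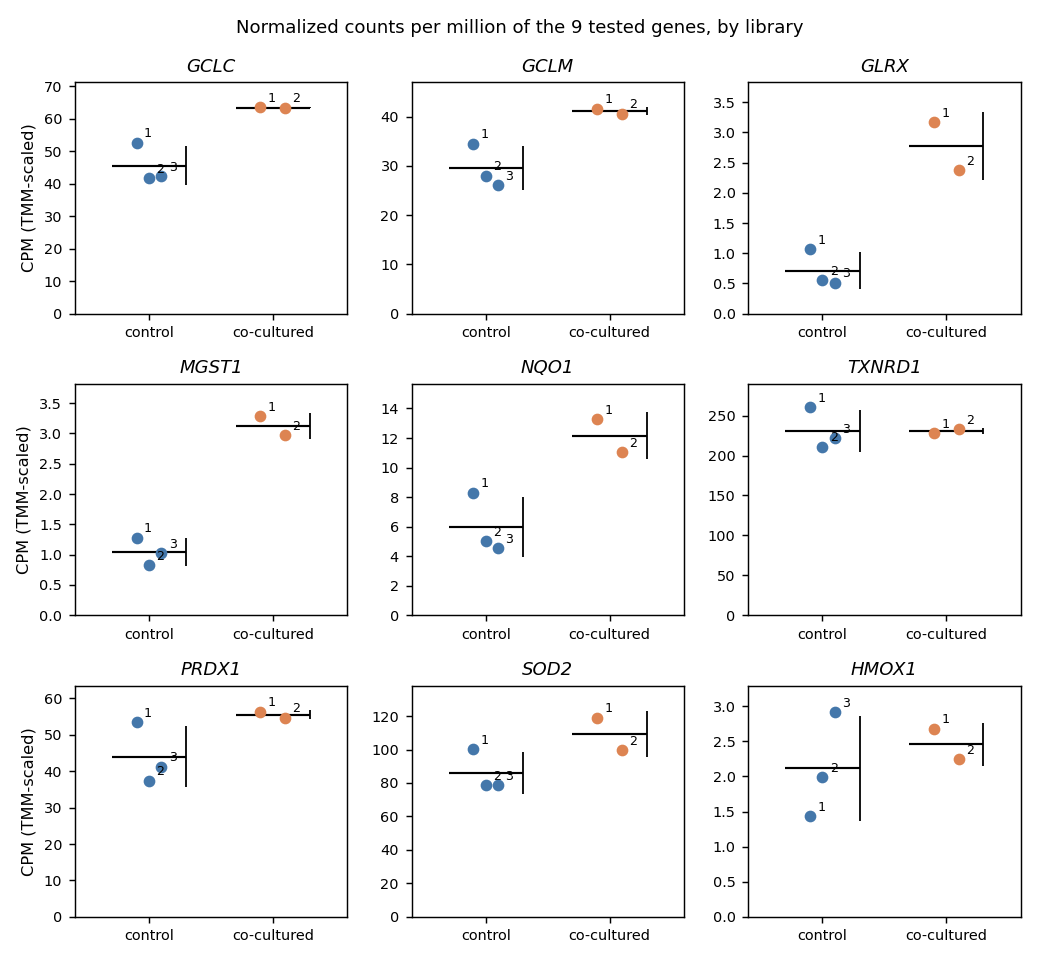
TMM-scaled CPM (y axis from 0) of the 9 tested genes in each library, labelled by replicate number, with the group mean as a horizontal line and the SD as a vertical line (n = 3 control, n = 2 co-cultured). Both co-cultured libraries lie above the control libraries for GCLC, GCLM, GLRX, MGST1, NQO1 and PRDX1, and the groups overlap for TXNRD1, SOD2 and HMOX1.

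The enzyme of the first and rate-limiting step of glutathione synthesis, glutamate-cysteine ligase, consists of a catalytic subunit encoded by GCLC and a modifier subunit encoded by GCLM. GCLC, on chromosome 6 from 53497341 to 53616970, had 52.6, 41.7 and 42.4 CPM in the control libraries and 63.5 and 63.3 CPM in the co-cultured libraries. Both co-cultured values were higher than every control value and nearly equal to each other. The means were 45.6 ± 6.08 CPM (SD, n = 3) and 63.4 ± 0.115 CPM (SD, n = 2), a log2FC of 0.48 (standard error, SE, 0.11, adjusted p = 0.00924 by edgeR). GCLM, on chromosome 1 from 93885205 to 93909456, had 34.5, 28.0 and 26.1 CPM in control and 41.6 and 40.6 CPM in co-cultured libraries. The co-cultured libraries were again above all control libraries, of which replicate 1 was the highest. Its means were 29.5 ± 4.41 CPM (SD, n = 3) and 41.1 ± 0.724 CPM (SD, n = 2), with a log2FC of 0.48 (SE 0.12, adjusted p = 0.0155 by edgeR).

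Within each library the ratio of the subunits moved little. The log2 ratio of GCLM to GCLC, in CPM, was -0.61, -0.58 and -0.70 in control, against -0.61 and -0.64 in co-cultured libraries, so the co-cultured values lay inside the control range. Per kilobase of annotated exon, pooled over all transcripts, the subunits had similar levels, with 5.61 ± 0.749 CPM per kb (SD, n = 3) for GCLC and 5.45 ± 0.813 CPM per kb (SD, n = 3) for GCLM in control. In co-cultured cells these levels were 7.81 ± 0.0141 and 7.59 ± 0.134 CPM per kb (SD, n = 2 each). The calls of both subunits were lost with either co-cultured library left out, where the adjusted p was 0.0729 and 0.0783 for GCLC and 0.110 and 0.0954 for GCLM. With the replicate number as a block, the adjusted p of GCLM was 0.0542.

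The promoter of GCLM is shown because a match to the core of the antioxidant response element, TGACNNNGC, lies close to its start, and that of TXNRD1 because it holds the same core although the gene was not called. Sequences are from RefSeq (GRCh38.p14), read 5′ to 3′ on the strand of the gene, and capitals mark the match on either strand. The opening letters TGAC also begin TGACTCA, a binding site of AP-1, so that the motifs overlap.
GCLM, chr1:93909456-93909504, minus strand, match on the opposite strand: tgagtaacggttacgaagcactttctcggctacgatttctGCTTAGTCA
TXNRD1, chr12:104215640-104215728, plus strand, match on the same strand: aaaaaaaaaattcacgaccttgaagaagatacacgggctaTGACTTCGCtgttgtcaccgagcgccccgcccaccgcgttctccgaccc
The match of GCLM ended 26 bases before the transcription start of RefSeq and the match of TXNRD1 in capitals ended 91 bases before it. The annotations differ for GCLM, since its GENCODE start, 93909456, is the last base of the match. A further match of TXNRD1, on the opposite strand, reached the start itself and is not shown. A second start listed for TXNRD1 had a match at chr12:104286930-104286938, GCTTTGTCA, that ended 94 bases upstream of it and lay within an exon of GENCODE. The promoter table held 14 promoters, each from 250 bases before to 50 after a start, for 8 of the 10 genes. A match was present in 4 of the 14 promoters, those of GCLM, TXNRD1 and MGST1, or 28.6%, beside 13.3% of all 35116 promoters in the table. In MGST1 it lay downstream of 1 of the 3 starts listed. The promoters of NQO1, GCLC, GLRX, SRXN1 and SOD2 did not hold these letters in this window, and those of HMOX1 and PRDX1 were not analysed here. A match is a sequence description and was not set against binding data.

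The largest changes belonged to genes at low levels. GLRX encodes glutaredoxin, which uses glutathione to release proteins from mixed disulfides, and lies on chromosome 5 from 95751319 to 95823005. It had 20, 10 and 10 counts in control against 58 and 36 in co-cultured libraries, or 1.06, 0.553 and 0.512 CPM against 3.17 and 2.38 CPM. Neither group reached into the other, with the gap wider than the spread within either group. The log2FC was 1.96 (SE 0.36, adjusted p = 0.00313 by edgeR), a 3.90-fold rise. GLRX lies within the span of RHOBTB3 on the other strand, and reads on the opposite strand of GLRX were 60.0% of all its reads in control and 27.7% in co-cultured libraries. Counted without regard to strand, its log2FC was 1.21, and with opposite-strand counts subtracted it was 3.90, both with an adjusted p under 0.05. Without co-cultured replicate 1 its adjusted p was 0.0561.

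MGST1 encodes a membrane-bound glutathione transferase and peroxidase of the endoplasmic reticulum and mitochondria. It lies on chromosome 12 from 16347142 to 16609259 and had 24, 15 and 20 counts in control against 60 and 45 in co-cultured libraries. In CPM these were 1.28, 0.829 and 1.02 against 3.28 and 2.97, again without overlap. Its log2FC of 1.58 (SE 0.27, adjusted p = 0.00251 by edgeR) was called under all 13 alternatives, with values from 1.44 to 1.75. It was the only gene of the set called under all of them. GLRX and MGST1 were at low levels, as was the endothelial marker ESAM, which changed in the same direction, and the part of endothelial RNA in their values was not tested.

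NQO1, the quinone reductase that is among the most widely used readouts of NRF2 activity, lies on chromosome 16 from 69706996 to 69726951. It had 156, 91 and 89 counts in control against 243 and 167 in co-cultured libraries. The CPM was 8.29, 5.03 and 4.56 in control, against 13.3 and 11.0 in co-cultured libraries, so that control replicate 1 was closest to the co-cultured group without reaching it. The control mean was 5.96 ± 2.03 CPM (SD, n = 3) and the co-cultured mean 12.2 ± 1.59 CPM (SD, n = 2), a 2.04-fold rise and a log2FC of 1.03 (SE 0.24, adjusted p = 0.0105 by edgeR). Without co-cultured replicate 1 the log2FC was 0.90 and the adjusted p 0.110. GLRX, MGST1 and NQO1 were upregulated differentially expressed genes (DEGs) at the criterion of the study, taken as a log2FC beyond 1 in size together with p under 0.05 before adjustment, which 5.44% of all genes met in this direction. NQO1 lay close to that limit and fell below it under upper-quartile normalization, where its log2FC was 0.96.

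**Figure D2:**
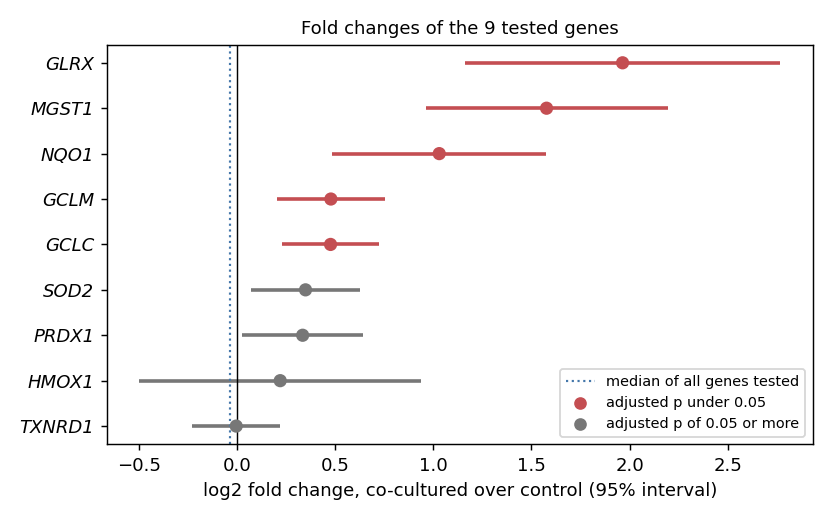
Log2FC of co-cultured over control (x axis) for the 9 tested genes, with the 95% interval of edgeR's quasi-likelihood fit as a bar and the median of all genes tested as a dotted line. The intervals of GLRX, MGST1, NQO1, GCLM and GCLC, in red, lie above 0, and that of TXNRD1 runs from -0.23 to 0.22. Those of PRDX1 and SOD2, in gray, also lie above 0, though their adjusted p was not under 0.05.

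TXNRD1, the cytosolic thioredoxin reductase and also a known NRF2 target, was not called under any setting. It lies on chromosome 12 from 104215779 to 104350305 and had 261, 211 and 222 CPM in control and 228 and 233 CPM in co-cultured libraries. The co-cultured values lay inside the control range. The means were 231 ± 26.1 CPM (SD, n = 3) and 231 ± 3.97 CPM (SD, n = 2), and the log2FC was -0.0039 with a 95% interval from -0.23 to 0.22 (adjusted p = 0.980 by edgeR). It held 3532 to 4901 counts per library, so that its interval was narrower than that of NQO1, and the sign of so small a value changed with the scaling. The log2 ratio of NQO1 to TXNRD1 in CPM was -4.97, -5.39 and -5.61 in control, against -4.10 and -4.40 in co-cultured libraries, without overlap.

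HMOX1 encodes heme oxygenase 1, which breaks down heme and is repressed by BACH1 as well as induced by NRF2. It lies on chromosome 22 from 35380361 to 35394214 and had 27, 36 and 57 counts in control against 49 and 34 in co-cultured libraries. The CPM of 1.44, 1.99 and 2.92 in control enclosed the 2.68 and 2.25 of the co-cultured libraries. Its log2FC of 0.22 had a 95% interval from -0.50 to 0.94 (adjusted p = 0.631 by edgeR), which holds both no change and a rise as large as that of GCLC. Control replicate 1 was its lowest control library, in contrast to the other tested members.

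PRDX1 and SOD2 remove hydrogen peroxide and superoxide, as a cytosolic peroxiredoxin and the manganese superoxide dismutase of mitochondria. PRDX1, on chromosome 1 from 45511036 to 45523047, had 53.4, 37.4 and 41.2 CPM in control and 56.4 and 54.7 CPM in co-cultured libraries. Its groups did not overlap, but control replicate 1 lay close to the co-cultured libraries, and the log2FC of 0.33 (SE 0.14) had an adjusted p of 0.0892 by edgeR's quasi-likelihood test. SOD2 had 100.2, 78.7 and 78.5 CPM in control and 119 and 99.4 CPM in co-cultured libraries. Here control replicate 1 was above co-cultured replicate 2, and the log2FC of 0.35 (SE 0.12) had an adjusted p of 0.0566 by the same edgeR test. Without control replicate 1 the log2FCs were 0.50 for PRDX1 and 0.48 for SOD2, with adjusted p-values of 3.57e-05 and 7.95e-05 by edgeR. SOD2 was also called by DESeq2 (adjusted p = 0.0387) and with unstranded counts (adjusted p = 0.0433). With all genes of at least 1 count in any library kept, the adjusted p by edgeR was 0.0142 for PRDX1 and 0.00344 for SOD2, and the call of both genes thus depended on the setting.

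For 2 entries the counts gave no measurement. SRXN1 encodes sulfiredoxin, which restores overoxidized peroxiredoxins such as PRDX1, and had 0, 1 and 1 counts in control against 0 and 1 in co-cultured libraries. Of its 2698 exonic bases, 85.0% are shared on the same strand with the entry AL121758.1, which had 0 counts in every library. Reads in shared bases are counted for neither entry in this layout, so the level of SRXN1 cannot be read from these tables. The second entry of SOD2, on chromosome 6 from 159679119 to 159762529, shares 69.7% of its exonic bases with other entries of its strand. No library held more than 3 counts for it, and the values above are those of the first entry, from 159669057 to 159745186. That entry shares 5.12% of its exonic bases with the second, and reads there are missing from its values.

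**Figure D3:**
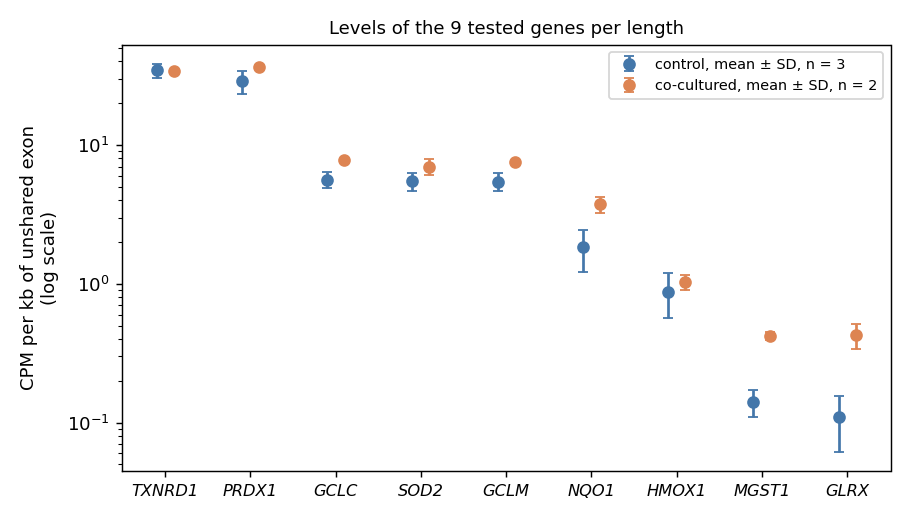
Level of the 9 tested genes in CPM per kilobase of exon not shared with another gene of the same strand (y axis, log scale), as mean ± SD of 3 control and 2 co-cultured libraries, in the order of the control level. TXNRD1 and PRDX1 have the highest levels in both groups, and MGST1 and GLRX have the lowest.

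Per length, TXNRD1 had 34.5 ± 3.89 and PRDX1 had 28.9 ± 5.50 CPM per kb in control (SD, n = 3 each), and these neighbors did not differ beyond their spread. GCLC, SOD2 and GCLM followed at 5.61, 5.48 and 5.45 CPM per kb, also within their spread. The lengths pool the exons of all annotated transcripts, so likeness or order between genes depends on the annotation. NQO1 had 1.83 ± 0.625 CPM per kb (SD, n = 3) and HMOX1 had 0.879 ± 0.312 CPM per kb (SD, n = 3). MGST1 and GLRX were lowest, at 0.140 ± 0.0301 and 0.109 ± 0.0472 CPM per kb (SD, n = 3 each), within their spread of each other. In co-cultured cells PRDX1 had 36.5 ± 0.769 and TXNRD1 had 34.4 ± 0.592 CPM per kb (SD, n = 2 each), and MGST1 and GLRX remained lowest at 0.420 and 0.426 CPM per kb. By mean CPM over the 5 libraries, GLRX and MGST1 lay at the 22.9 and 26.2 percentiles of all genes tested and TXNRD1 at the 96.3 percentile.

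**Figure D4:**
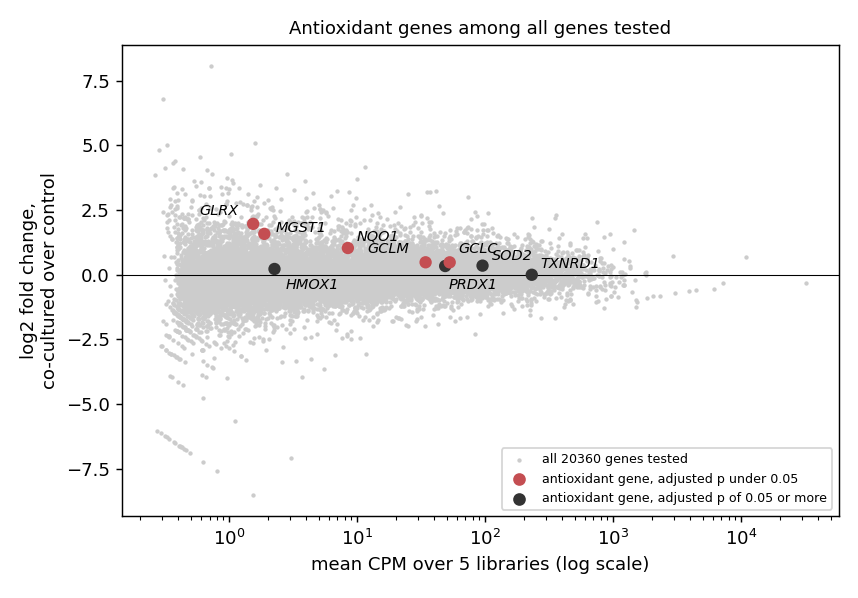
Log2FC of co-cultured over control (y axis) against mean CPM over the 5 libraries (x axis, log scale) for all 20360 genes tested, in gray, with the 9 antioxidant genes named and those with an adjusted p under 0.05 in red. GLRX and MGST1 combine low levels with the largest fold changes of the 9 genes, and TXNRD1, at the highest level, lies near 0.

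Among 13 genes that carry or regulate NRF2 activity, 12 were tested, of which 8 passed the test as higher and 0 as lower (also 0 lower with DESeq2 or at an unadjusted p under 0.05, but 1 under upper-quartile normalization), and the median log2FC was 0.52. The list mixes genes that raise NRF2 activity with genes that restrain it, so the count gives no direction of that activity. Those called higher included the repressor BACH1 and CUL3, of the ligase to which KEAP1 presents NRF2. CUL3 had a log2FC of 0.50 (adjusted p = 0.00135 by edgeR). The share of all genes was 18.4% higher and 15.0% lower, here and for each list that follows. NFE2L2 itself had 149, 134 and 136 CPM in control and 205 and 198 CPM in co-cultured libraries, a log2FC of 0.53 (SE 0.08, adjusted p = 0.00127 by edgeR). Of its exonic bases, 17.6% are shared on the same strand with the entry AC019080.1, and reads there are missing from its values. For NFE2L3, also called higher, reads on the opposite strand were 88.8% of all its reads in control and 85.5% in co-cultured libraries. KEAP1 had 60.4, 43.6 and 45.8 CPM in control and 48.1 and 52.4 CPM in co-cultured libraries. Its groups overlapped, and its log2FC of 0.01 had a 95% interval from -0.30 to 0.32 (adjusted p = 0.967 by edgeR), with a sign that changed under other scalings. BACH1 rose by 0.28 on the log2 scale (adjusted p = 0.0258 by edgeR). It was not called under upper-quartile normalization (adjusted p = 0.0630), without control replicates 2 or 3 (0.0573 and 0.0870) or without co-cultured replicates 1 or 2 (0.192 and 0.101). BACH2, its relative known from lymphocytes, rose by 1.64 (adjusted p = 0.000103), and NFE2L1, which encodes the related factor NRF1 that drives proteasome genes, rose by 0.87 (adjusted p = 0.000188). The count of 8 was 5 without control replicate 2, without control replicate 3 and with the replicate number as a block. There 14.5%, 14.8% and 13.6% of all genes were higher. The count also fell with either co-cultured library left out, where only 1 library stayed in that group.

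**Figure D5:**
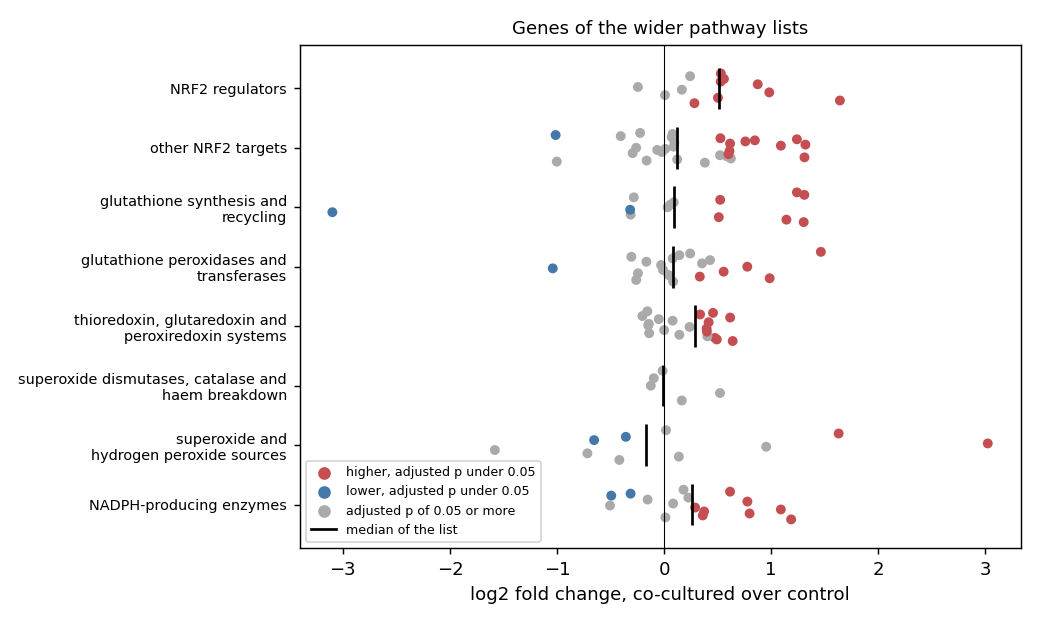
Log2FC of co-cultured over control (x axis) for each tested gene of the 8 wider pathway lists (rows), with genes called higher in red, called lower in blue and not called in gray, and the median of each list as a vertical line. The median is highest for the NRF2 regulators, at 0.52, and below 0 for the dismutase and catalase list and for the superoxide and hydrogen peroxide sources.

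Of the 29 other NRF2 targets tested, 10 were higher and 1 lower, and their median log2FC was 0.12, beside -0.03 over all genes. ME1, the cytosolic malic enzyme that makes NADPH, had 23.0, 15.9 and 16.0 CPM in control and 38.3 and 39.6 CPM in co-cultured libraries, a log2FC of 1.09 (adjusted p = 0.000975 by edgeR). SLC7A11, the cystine importer, had 132, 82.8 and 76.1 CPM in control and 208 and 251 CPM in co-cultured libraries, a log2FC of 1.24 (adjusted p = 0.00190). OSGIN1, an oxidative stress-induced growth inhibitor, rose by 1.32 on the log2 scale. TRIM16L, a close relative of TRIM16 with which its reads may be confused, fell by 1.01 on the log2 scale. Without co-cultured replicate 1 or 2 the adjusted p was 0.0649 and 0.0510 for OSGIN1 and 0.0920 and 0.0571 for TRIM16L. The number of these targets called higher was then 5 and 6.

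In the list of glutathione synthesis and recycling beside the ligase, 6 of 13 tested genes were higher and 2 lower, and the median log2FC was 0.09. SLC3A2, the heavy chain that carries SLC7A11 to the membrane, had 227, 152 and 146 CPM in control and 435 CPM in both co-cultured libraries, a log2FC of 1.31 (adjusted p = 0.000526 by edgeR). CHAC1 and CHAC2, which degrade glutathione rather than make it, rose by 1.30 and 1.14 on the log2 scale (adjusted p = 0.000603 and 0.00143). SLC7A11, SLC3A2 and CHAC1 are also known targets of ATF4, the factor of the amino acid response. For CHAC2, reads on the opposite strand were many, and its log2FC was 0.62 without regard to strand and 4.95 with opposite-strand counts subtracted. The 2 lower calls were lost with control replicate 2 or 3 or either co-cultured library left out.

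In the thioredoxin, glutaredoxin and peroxiredoxin list 9 of 20 tested genes were higher and 0 lower, beside 18.4% and 15.0% of all genes (also 0 lower with DESeq2 or at an unadjusted p under 0.05, but 1 under upper-quartile normalization and 1 without control replicate 1), the median log2FC was 0.29 and no called gene was past 1. At GLRX5 the opposite strand held more counts than the gene's own strand in every library. Its share was 64.2% for the control group and 53.5% for the co-cultured group. Only 12 of the 13 alternatives tested this gene, and the part of the opposite strand in its rise was not tested. GLRX5 and GLRX3, glutaredoxins of iron-sulfur cluster assembly, rose by 0.48 and 0.49 on the log2 scale (adjusted p = 0.00281 and 0.00473 by edgeR). That of GLRX3 was 0.0808 without co-cultured replicate 2. The count of 9 was 2 without co-cultured replicate 1 and 1 without co-cultured replicate 2, which is near the 8.21% and 8.94% of all genes called higher there. It was 4 with opposite-strand counts subtracted and 5 with the replicate number as a block, where 17.8% and 13.6% of all genes were higher. It was 6 under upper-quartile normalization and without control replicate 2 or 3, where 15.1%, 14.5% and 14.8% of all genes were higher. Of 19 glutathione peroxidases and transferases tested, 5 were higher and 1 lower, beside 18.4% and 15.0% of all genes, with a median log2FC of 0.08. The count of 5 was 9 without control replicate 1 (26.5% of all genes), 1 without co-cultured replicate 1 (8.21%) and 3 without co-cultured replicate 2 (8.94%). PTGES, a prostaglandin E synthase that uses glutathione and is no antioxidant enzyme, rose by 1.46 on the log2 scale. GSTM2, whose reads can be split with the near-identical GSTM1 and GSTM4, fell by 1.04 on the log2 scale, and its adjusted p was 0.104 and 0.105 without co-cultured replicate 1 or 2.

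Of the 5 tested genes for dismutases, catalase and heme breakdown other than the members, 0 were called at an adjusted p under 0.05 by edgeR. At an unadjusted p under 0.05 there was 1, BLVRB, and DESeq2 called 0. BLVRB and BLVRA, the reductases that follow heme oxygenase, had log2FCs of 0.52 and 0.17 (adjusted p = 0.0698 and 0.340 by edgeR). Without control replicate 1 their adjusted p-values were 0.0355 and 0.00793.

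Among the sources of superoxide and hydrogen peroxide, 10 of 19 genes were tested, and 2 were higher and 2 lower, which is near the shares of all genes (18.4% and 15.0%), and the median log2FC was -0.17. NOX4, a NADPH oxidase that releases hydrogen peroxide, had 5, 1 and 3 counts in control against 25 and 20 in co-cultured libraries. The groups did not overlap, and the log2FC was 3.02 (SE 0.51, adjusted p = 0.00223 by edgeR), from a control level of 0.158 ± 0.105 CPM (SD, n = 3) that is near the floor of 3 counts. NOXO1, an organizer subunit of NOX1, rose by 1.63 on the log2 scale (adjusted p = 0.00448). Without co-cultured replicate 1 its adjusted p was 0.0627, and 98.8% of its exonic bases are shared with TBL3 on the other strand. Reads on the opposite strand of NOXO1 were 83.0% of all its reads in control and 69.2% in co-cultured libraries. NOX1 had at most 4 counts in any library. The 2 lower calls were lost without control replicates 2 or 3 or without either co-cultured library.

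Of 16 tested genes in a list of enzymes that produce NADPH or act in related steps, 8 were higher and 2 lower, and the median log2FC was 0.26. Glutathione and thioredoxin reduction consume NADPH. ME2 and MTHFD2, both called higher, work mainly with NAD, and NADK2, called lower, makes NADP from NAD. The counts are therefore not those of NADPH producers alone. ALDH1L2, the mitochondrial formyltetrahydrofolate dehydrogenase, had 81.6, 72.5 and 71.8 CPM in control and 168 and 175 CPM in co-cultured libraries, a log2FC of 1.19 (SE 0.08, adjusted p = 4.10e-05 by edgeR). ME1 was described above. Without either co-cultured library the count of 8 was 5. Over the 8 lists together, with each gene once, 45 of 116 tested genes were higher and 8 lower, beside 18.4% and 15.0% of all genes tested, and their median log2FC was 0.17. Without co-cultured replicate 1 or 2 the higher calls were 22 and 24 and the lower calls 0 in both, and without control replicate 1 the lower calls were 13.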

How the data were processed

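RNA-Seq libraries were made from rRNA-depleted RNA with a directional kit. The authors deposited raw counts of reads per gene, made with STAR 2.6.1b on GRCh38 per the labels, in 3 columns for either strand choice. Identifiers matched GENCODE release 29. The column of the expected strand was used, which held 92.3% to 93.1% of strand-assigned gene reads. A deposited table of the authors' own comparison (means, fold changes, p-values) gave gene symbols only. Reads without a gene (40.1% to 51.2% of each library) were left out.

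Genes were kept by filterByExpr, normalized by TMM and compared with edgeR 4.0.16 in R 4.3.3 (quasi-likelihood test, Benjamini-Hochberg adjustment over 20360 genes). Each standard error was taken as the absolute log2 fold change over the root of the F statistic. Intervals are 95% and floors of 3 counts cover counting error only. For 3 against 2 libraries the smallest exact permutation p is 0.1, and the model fit was used instead. On simulated data, the fit recovered 127 of 200 genes changed by an absolute log2 fold change of 1, and made 13 false calls. The alternatives were DESeq2 1.42.0, other normalizations and filters, a replicate block, each library left out, and other uses of strand. Levels per length used exonic bases not shared on the same strand, pooled over all annotated transcripts of a gene. The length of the expressed transcripts was not estimated. Plots used matplotlib 3.10.9.

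The members and lists were chosen with earlier results of these data known, and the lists were written from general knowledge. Genes named beside the members are NFE2L2, KEAP1 and BACH1, and from each list up to 4 called genes with an absolute log2 fold change above 1 and the smallest p, or, where fewer than 2 met this, the 2 with the smallest p. Marker genes, AL121758.1, AC019080.1, CUL3, NFE2L3, ME2, MTHFD2, NADK2 and NOX1 were named outside this rule.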

Additional observations from a re-analysis of the deposited data

How the results depend on the processing

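Of the 9 antioxidant genes tested, the number called higher was 4 to 7 under the 8 alternatives that kept all libraries, and 1 to 7 with each library left out in turn. Under the 8 alternatives that kept all libraries, 11.1% to 19.9% of all genes were higher. None of the 9 antioxidant genes was called lower under any of the 13 alternatives. Fewer libraries were left in the fits with a library left out. With a co-cultured library left out, the lone one was assumed to vary like the control libraries. Over all genes the higher calls then ran from 1749 to 5295 and the lower calls from 985 to 4602, beside 3750 and 3059. For the 8 pathway lists together the higher calls ran from 22 to 62 and the lower calls from 0 to 13 with each library left out, and the lower calls were 5 with DESeq2, 4 with the replicate block and 5 with opposite-strand counts subtracted. The causes were not tested.

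The sign of TXNRD1 changed, with log2 fold changes of 0.0065 under median-ratio size factors, 0.014 with DESeq2 and 0.047 with unstranded counts, and from -0.062 to 0.094 with each library left out. That of KEAP1 was -0.066 under upper-quartile normalization, -0.0019 with at least 10 counts in every library and -0.034 with the replicate block, and ran from -0.076 to 0.17 with each library left out. Neither gene was called under any alternative.

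Replicate numbers are shared by the groups, but the labels give them no meaning, and the deviations of same-numbered libraries had correlations of -0.114 and -0.067 across genes. With the replicate block 4 of the 9 genes were called higher, GCLM and BACH1 were lost (adjusted p = 0.0542 and 0.190 from edgeR's quasi-likelihood test), and no other member or gene named by the rule changed its call. Depth limited GLRX, MGST1, HMOX1, NOX4 and NOXO1, each with at most 60 counts in any library.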
